A study of Mus musculus with 2 samples.

Results

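Igfbp4, insulin-like growth factor binding protein 4, was followed across the cell classes, the cell cycle states and the 5 cultures of a single-cell RNA-seq experiment on mouse distal small intestinal organoids. It is 1 of the 22253 genes in the deposited RNA matrix and was taken by its symbol. It had been picked because its level differed between the mutant and control cultures and between cell types in these same data, so those levels are given as a description, with no test. The study compared 3 Etv1 mutant cultures with 2 control cultures. Every culture, mutant and control, carried a pair of reporters: Neurog3-RFP, active in enteroendocrine precursors, and Gcg-Venus, active in cells that express proglucagon. Etv1 encodes a transcription factor of the ETS family. The kind of Etv1 mutation, the sort gate, and the age of the mice the cultures came from are not given in the sources used here. The labels call the cultures biological replicates and do not say whether cultures of 1 genotype came from separate mice.

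Insulin-like growth factors (IGFs) act on cells through the receptor IGF1R, and the IGF binding proteins are secreted proteins that hold IGFs away from it. IGFBP4 is known mainly as an inhibitory binding protein. It is cut by the secreted protease PAPP-A, which releases the IGF, and stanniocalcins inhibit that protease. IGFBP4 has also been described as an inhibitor of canonical Wnt signalling through the receptors LRP6 and Frizzled. Crypt base stem cells depend on Wnt, express Lgr5, Olfm4 and Smoc2, and give rise to cycling progenitors, absorptive enterocytes and the secretory goblet, Paneth and enteroendocrine cells. In mouse small intestine, Igfbp4 is counted among the transcripts of Lgr5-positive stem cells. In GENCODE vM21 on mm10 the gene lies on the plus strand of chromosome 11, from 99041244 to 99054392, with 6 annotated transcripts, 3 of them protein-coding. The first listed of these has 4 exons, and no annotated gene overlaps Igfbp4.

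The cells were tagged with a hashtag for each culture, pooled and sequenced together, and 1432 cells could be given to 1 culture, 282, 281 and 197 to mutant cultures 1, 2 and 3 and 323 and 349 to control cultures 1 and 2. The median cell held 21409 to 24126 RNA counts (unique molecular identifiers, UMIs) in the mutant cultures and 20842 to 22615 in the control cultures. The cells formed 10 clusters, and 7 of these took a class name from marker lists: 3 stem-like clusters (398 cells), and 1 cluster each of cycling-like (232), enterocyte-like (220), goblet/Paneth-like (101) and enteroendocrine-like cells (62). Clusters 5 (162 cells, Phlda2 and Atf5 among its leading genes), 8 (85 cells with a median of 1340 UMIs) and 9 (172 cells with a median of 5950 UMIs, led by mitochondrially encoded genes) stayed unnamed. Cluster 9 had 5 of 8 stem markers and cluster 8 had 6 of 10 Paneth markers past the bounds, but their cells held a median of 0.272 and 0.061 of their own cultures' median UMIs and no such marker was among their 10 leading genes. At least 1 of the epithelial markers Epcam, Cdh1, Krt8 and Cdx2 was found in 99.9% of the cells. Of the markers of other tissues, 5 of 6 mesenchymal, 2 of 5 immune and 2 of 4 endothelial genes were at 0, and the endothelial list summed to 0 to 0.306 CPM (counts divided by the total of the culture and scaled to 1e+06) in the mutant and 0 to 0.143 CPM in the control cultures. The immune list summed to 0.946 to 2.40 CPM in the mutant and 0.937 to 1.49 CPM in the control cultures, and the mesenchymal list to 0.306 to 1.44 CPM in the mutant and 3.29 to 5.24 CPM in the control cultures.

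Igfbp4 was higher in each mutant culture than in either control culture. Its level over all cells was 49.2, 24.7 and 31.6 CPM in mutant cultures 1, 2 and 3, against 4.0 and 5.71 CPM in control cultures 1 and 2. Mutant culture 1 was the highest, and the lowest mutant culture lay above the highest control culture with no overlap of their 95% counting intervals (20.96 to 28.7 CPM in mutant culture 2 and 4.08 to 7.78 CPM in control culture 2). The mean was 35.2 ± 12.7 CPM in mutant cultures (SD, n = 3) and 4.86 ± 1.21 CPM in control cultures (SD, n = 2), a ratio of 7.24, or 2.86 on the log2 scale. The levels rested on 307, 161 and 132 counts in the mutant cultures and on 29 and 40 counts in the control cultures. The intervals cover counting error only and not the spread between cultures, so their separation is no test.

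**Figure D1:**
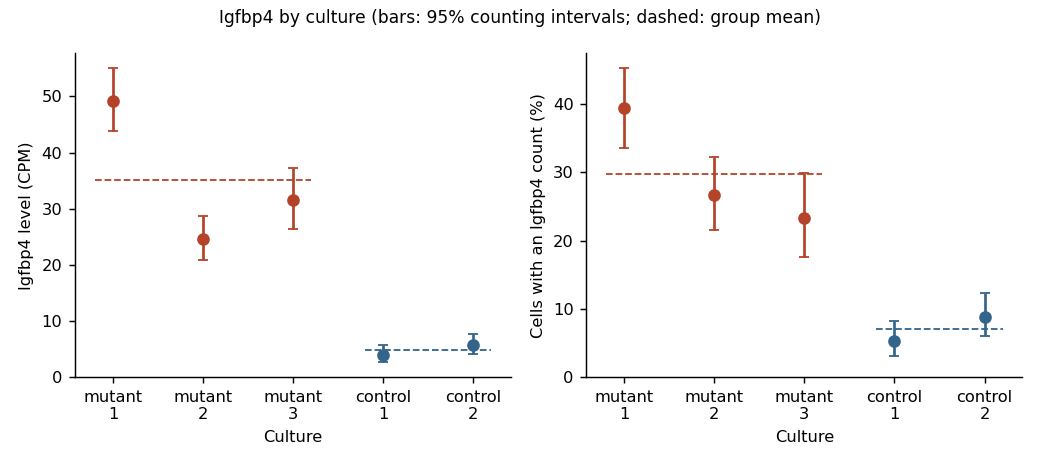
Igfbp4 in each culture: on the left the level in CPM, on the right the percentage of cells with at least 1 Igfbp4 count. Points are cultures, mutant in red and control in blue, bars are exact 95% counting intervals and dashed lines are group means; the mutant cultures sit at 24.7 to 49.2 CPM and the control cultures at 4.0 and 5.71 CPM.

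More cells held an Igfbp4 transcript in the mutant cultures, and more transcripts were found per positive cell. At least 1 count was found in 39.4%, 26.7% and 23.4% of the cells of mutant cultures 1, 2 and 3, against 5.26% and 8.88% of the cells of control cultures 1 and 2. After each cell was thinned to 5000 UMIs, which left out 189 shallower cells, the shares were 20.8%, 9.92% and 13.5% in the mutant cultures and 2.40% and 2.92% in the control cultures. The median positive cell held 2 counts in each mutant culture and 1 count in each control culture. Cells with 3 or more counts numbered 43, 23 and 18 in the mutant cultures and 3 and 3 in the control cultures, and the highest cells held 12, 8 and 12 counts in the mutant cultures and 5 and 3 in the control cultures. The 5 highest cells carried 15.6%, 17.4% and 33.2% of the Igfbp4 counts of the mutant cultures and 51.7% and 32.5% of those of the control cultures. Without the highest cell of each culture the log2 ratio of mutant to control was 2.95. In enterocyte-like cells, the class with the least Igfbp4 in the mutant cultures, the share of cells with a count was 12.8%, 1.52% and 3.70% in the mutant cultures (median 25499 to 28601 UMIs) and 4% and 7.89% in the control cultures (median 24876 to 29585 UMIs). The control shares over all cells lay within this range, which reached 8.88% only through mutant culture 1. Each control share over all cells was above the enterocyte-like share of its own culture, by little. From these shares alone the control cells are not read as expressing Igfbp4 above background.

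The hashtag calls were not secure for every cell. In the mutant cultures the cells with an Igfbp4 count had hashtag purities close to those of the other cells. The top hashtag took a median of 41.5%, 36.8% and 60.02% of the hashtag counts in cells with an Igfbp4 count in mutant cultures 1, 2 and 3, against 42.7%, 37.8% and 60.6% in cells without. In the control cultures these medians were 37.2% and 70.5% in cells with a count and 37.4% and 64.5% in cells without. A second caller, MULTIseqDemux, kept the HTODemux call for 82.9%, 82.7% and 82.6% of mutant cells with a count and 82.5%, 87.4% and 79.5% of those without. In control culture 1 it kept 76.5% and 84.6%, and in control culture 2 it kept 83.9% and 59.4%. The calls of control culture 2 were thus the least secure, with 215 of 349 cells kept. Among cells that both callers gave to the same culture, the level was 50.1, 23.8 and 32.0 CPM in mutant and 3.02 and 7.12 CPM in control cultures. Among cells whose top hashtag held at least 60% of the hashtag counts, it was 59.0, 20.1 and 28.9 CPM in mutant cultures and 0 and 6.16 CPM in control cultures. The 0 came from 14 cells of control culture 1, where 3 counts would have been 10.5 CPM.

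Among the named classes, stem-like cells had the most Igfbp4 in mutant cultures. Their level was 91.4, 47.6 and 53.1 CPM in mutant cultures 1, 2 and 3, from 53, 67 and 61 cells, against 6.93 and 7.43 CPM in control cultures 1 and 2, from 104 and 113 cells. Every mutant culture lay above both control cultures in this class, and their 95% counting intervals did not overlap. These intervals leave out the spread between cultures, and the gene was picked for such differences, so this is no test. The mean was 64.0 ± 23.8 CPM in mutant (SD, n = 3) and 7.18 ± 0.356 CPM in control cultures (SD, n = 2), a ratio of 8.91. A count was found in 71.7%, 46.3% and 39.3% of the mutant stem-like cells (median 20772 to 23102 UMIs) and in 8.65% and 8.85% of the control ones (median 20448 to 20882 UMIs). Thinned to 5000 UMIs, the shares were 34.0%, 20.9% and 27.1% in mutant and 5.83% and 3.67% in control stem-like cells, beside 2.86%, 0% and 0% in mutant and 0% and 2.94% in control enterocyte-like cells. Of the 3 stem-like clusters, cluster 2 stood at 52.3, 65.5 and 65.2 CPM in the mutant cultures and 6.62 and 3.15 CPM in the control cultures. Cluster 4, led by Gkn3 and Olfm4, stood at 103, 36.3 and 43.2 CPM in the mutant cultures and 5.98 and 9.57 CPM in the control cultures. Cluster 7, led by Edn1, Tead2 and Angpt2, had 138 and 47.6 CPM in mutant cultures 1 and 3 and 13.0 and 12.7 CPM in the control cultures, while mutant culture 2 had 2 cells of it and no count. The order of the stem-like clusters thus differed between the mutant cultures.

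Cycling-like cells, the dividing progenitors, had less Igfbp4 than stem-like cells in every culture. They stood at 46.9, 23.4 and 23.8 CPM in mutant cultures 1, 2 and 3, against 1.32 and 3.41 CPM in control cultures 1 and 2. The control values rested on 2 and 6 counts. The mean was 31.4 ± 13.5 CPM in mutant and 2.36 ± 1.48 CPM in control cultures (SD, n = 3 and 2). Cluster 5, which no marker list named, lay between stem-like and cycling-like cells in the mutant cultures, at 53.6, 29.8 and 37.2 CPM, against 4.16 and 5.23 CPM in the control cultures. Cluster 9, with few UMIs per cell, stood at 61.6, 48.3 and 69.5 CPM in mutant and 13.5 and 15.9 CPM in control cultures, from 20, 6 and 7 counts and from 4 and 4.5 counts.

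Enterocyte-like cells, the absorptive cells, had close to no Igfbp4 in either genotype, and there the groups overlapped. Their level was 7.79, 0.529 and 1.42 CPM in mutant cultures 1, 2 and 3, against 2.08 and 3.498 CPM in control cultures 1 and 2. These values came from 8, 1 and 1 counts in 132 mutant cells and 3 and 3 counts in 88 control cells. The pooled level was 2.76 CPM in mutant cells (95% counting interval 1.33 to 5.08) and 2.61 CPM in control cells (0.957 to 5.67), so a difference could not be seen at this depth. The mutant stem-like mean was above the mutant enterocyte-like mean by 4.3 on the log2 scale, and by 5.69 without mutant culture 1, which held 8 of the 10 mutant enterocyte-like counts. In the control cultures, with 33 counts in stem-like and 6 in enterocyte-like cells, the means were 7.18 and 2.79 CPM.

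The secretory classes held few Igfbp4 counts. Goblet/Paneth-like cells, which make mucus and antimicrobial proteins, stood at 14.2, 19.9 and 13.9 CPM in mutant cultures 1, 2 and 3, from 4, 4 and 7 counts, against 0 and 2.37 CPM in control cultures 1 and 2, from 0 and 1.5 counts. All 3 mutant cultures lay above both control cultures, although 3 counts would have been 6.46 CPM in control culture 1. Enteroendocrine-like cells, which make gut hormones, stood at 39.3, 33.7 and 0 CPM in mutant cultures, from 4, 3 and 0 counts in 7, 10 and 9 cells, against 0 and 12.1 CPM in control cultures, from 0 and 2 counts in 20 and 16 cells. The groups overlapped, and 3 counts would have been 33.2 CPM in mutant culture 3. Cluster 8, with the fewest UMIs per cell, had 7.33 counts in mutant cultures, all in mutant culture 2, and 1 count in control cultures.

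**Figure D2:**
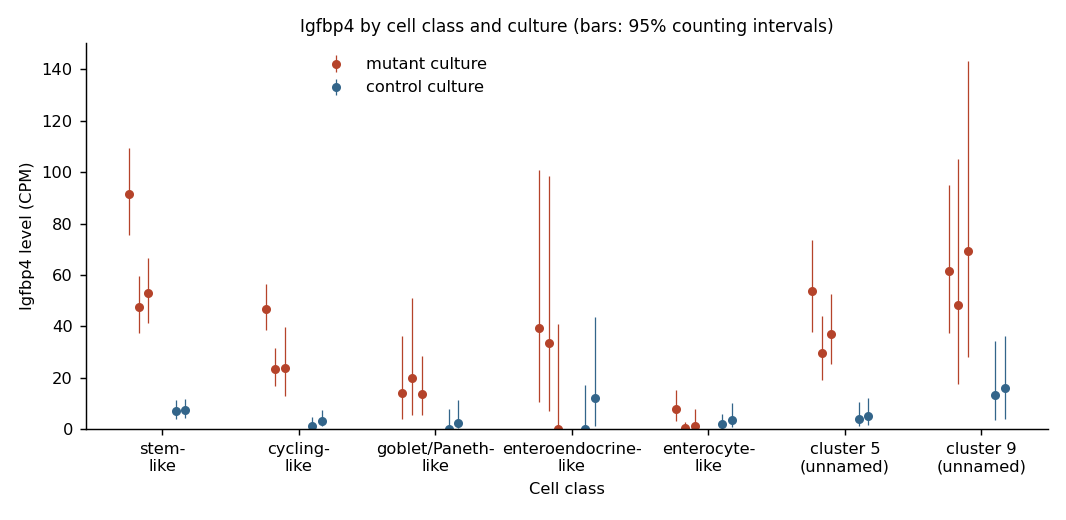
Igfbp4 level (CPM) by cell class, with 1 point for each culture, mutant in red to the left and control in blue to the right, and bars for exact 95% counting intervals; cluster 8 is left out because its intervals are too wide. Stem-like, cycling-like and cluster 5 cells of the mutant cultures lie above the control cultures, while the enterocyte-like values of both genotypes lie under 8 CPM.

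Ordered by the mean of the mutant cultures, the levels ran from stem-like (64.0 CPM) through cluster 9 (59.8), cluster 5 (40.2), cycling-like (31.4), cluster 8 (26.6), enteroendocrine-like (24.3) and goblet/Paneth-like (16.0) to enterocyte-like cells (3.25). The place of cluster 8 rested on mutant culture 2 alone, as its levels were 0, 79.8 and 0 CPM. Each neighbouring pair in this order overlapped across the mutant cultures except the last, where goblet/Paneth-like cells spanned 13.9 to 19.9 CPM and enterocyte-like cells 0.529 to 7.79 CPM. Stem-like cells held 43.8% of the Igfbp4 counts but 24.7% of all UMIs in the mutant cultures, and 47.8% of the Igfbp4 counts but 32.2% of all UMIs in the control cultures. Enterocyte-like cells held 1.66% of the Igfbp4 counts and 21.3% of all UMIs in mutant cultures, and 8.70% and 16.1% in control cultures. The stem-like class itself was 24.5 ± 6.11% of the cells in mutant (SD, n = 3) and 32.3 ± 0.127% in control cultures (SD, n = 2). It was 18.8%, 23.8% and 31.0% in mutant cultures 1, 2 and 3, so that mutant culture 3 was near the control cultures. With the named classes weighted equally, the log2 ratio of mutant to control was 2.83, beside 2.86 over all cells. The part of the class shares in the difference was not tested.

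Igfbp4 also followed the number of stem markers found in a cell, which does not depend on the clusters. Cells thinned to 5000 UMIs were sorted by how many of 8 stem markers (Lgr5, Olfm4, Ascl2, Slc12a2, Gkn3, Smoc2, Axin2 and Rgmb) had a count. The Igfbp4 level was then taken from the full counts of the same cells. In the mutant cultures the mean level was 5.21 CPM in cells with 0 of the markers, 15.9 with 1, 36.5 with 2, 30.2 with 3 and 54.1 CPM with 4 or more. In the control cultures the means were 1.73, 3.17, 2.597, 3.77 and 7.03 CPM over the same steps. Cells with 4 or more markers stood at 69.1, 41.2 and 52.1 CPM in mutant cultures 1, 2 and 3, against 7.5 and 6.56 CPM in control cultures 1 and 2, and cells with no marker at 8.996, 4.25 and 2.39 CPM in mutant and 2.11 and 1.35 CPM in control cultures. The top of the scale was above its bottom in each of the 5 cultures, while the steps between were uneven. The control values with no marker rested on 3 and 1 counts.

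Lgr5, the Wnt-pathway receptor used to mark crypt base stem cells, gave the same order when taken alone. Lgr5 was sought after thinning, and the Igfbp4 level was again taken from the full counts. Igfbp4 stood at 73.8, 44.9 and 56.0 CPM in cells with an Lgr5 count in mutant cultures 1, 2 and 3, and at 36.7, 16.8 and 20.3 CPM in cells without. In control cultures 1 and 2 it stood at 7.80 and 6.26 CPM in cells with an Lgr5 count and 2.06 and 5.51 CPM in cells without. Cells with an Lgr5 count were higher in all 5 cultures, by the least in control culture 2. With the mitotic marker Mki67 there was no such order: Igfbp4 stood at 49.0, 30.7 and 37.6 CPM in mutant cells with an Mki67 count and 50.8, 21.3 and 31.0 CPM in those without.

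Igfbp4 was lower in mutant cells with 5 or more enterocyte markers than in those with 0 to 3. Of 12 enterocyte markers, cells with 0 to 3 found had mean levels of 54.0, 36.9, 46.3 and 36.0 CPM in mutant cultures and 1.03, 5.78, 5.90 and 6.22 CPM in control cultures. The steps up to 3 followed no common order, with 23.8, 49.7, 80.5 and 42.9 CPM in mutant culture 1. With 4 found, the means were 15.3 CPM in mutant and 4.54 CPM in control cultures, but the mutant cultures stood at 44.1, 1.89 and 0 CPM, with a mean of 0.947 CPM without mutant culture 1. With 5, and with 6 or more, they were 1.72 and 7.75 CPM in mutant and 2.70 and 1.91 CPM in control cultures, from 1 and 6 counts in mutant cells and 1 and 1 in control cells. In the control cultures the counts were too few to show an order.

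**Figure D3:**
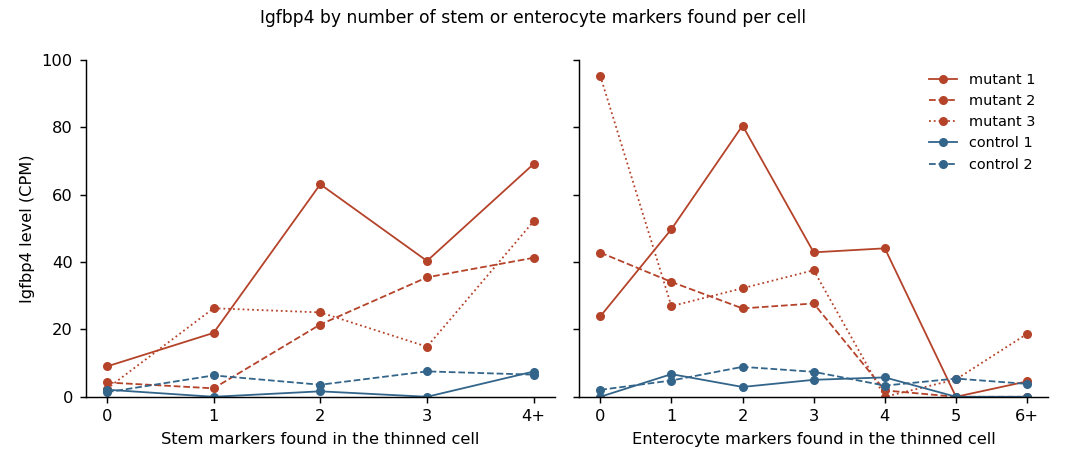
Igfbp4 level (CPM) against the number of stem markers (left, of 8) or enterocyte markers (right, of 12) with a count in the cell after thinning to 5000 UMIs; each line is a culture, mutant in red and control in blue, with the last step pooling higher numbers. The mutant lines end at 41.2 to 69.1 CPM with 4 or more stem markers, and the control lines stay under 10 CPM throughout.

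The cell cycle was read from the same lists of 20 S phase and 20 G2/M genes in every cell, and a cell below 0 on both scores was called neither. Over all cells, Igfbp4 was highest in cells called S phase in each mutant culture. S phase cells stood at 67.7, 40.8 and 60.1 CPM in mutant cultures 1, 2 and 3, against 1.55 and 10.8 CPM in control cultures 1 and 2. G2/M cells stood at 48.2, 24.2 and 21.3 CPM in mutant and 3.27 and 5.66 CPM in control cultures, and cells called neither at 34.7, 16.8 and 23.0 CPM in mutant and 5.75 and 2.84 CPM in control cultures. In the control cultures S phase cells were the lowest state of culture 1 and the highest of culture 2, from 3 and 19.5 counts.

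Cells called S or G2/M were above other cells in each mutant culture over all cells, while within stem-like cells the difference was below or near 0. S and G2/M cells together were above cells called neither by 0.69, 0.89 and 0.90 on the log2 scale in mutant cultures 1, 2 and 3, and by 0.80 on their mean levels. Within stem-like cells the same difference was −0.21, with −0.15, −0.58 and 0.01 in mutant cultures 1, 2 and 3 and −0.09 without mutant culture 2. With enterocyte-like cells left out of all cells it was 0.0024. Stem-like cells called S phase had a mean of 69.2 CPM and those called neither 70.0 CPM in mutant cultures, against 4.81 and 8.60 CPM in control cultures. Stem-like cells called G2/M were 9, 6 and 6 cells in the mutant cultures, with 55.0, 24.8 and 0 CPM. Called on thinned cells, this state held 9, 6 and 6 cells, with 76.6, 31.3 and 37.9 CPM, so its values depended on the calls. With both the counts and the phases taken from thinned cells, the difference over all cells was 0.78. There S phase cells stood at 79.3, 40.8 and 90.9 CPM in mutant cultures 1, 2 and 3. Those called neither stood at 29.5, 23.6 and 36.7 CPM. G2/M cells stood at 56.5, 15.2 and 28.6 CPM, from 24, 5 and 4 counts, and so below neither in mutant cultures 2 and 3. The part of free RNA in the calls was not tested.

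The genes whose counts varied most like those of Igfbp4 among single cells included the stem markers Olfm4, Lgr5 and Smoc2. Pearson's r was taken across the cells of each culture on log-transformed counts scaled to 10000 per cell, over 10361 genes found in at least 5% of cells, and averaged over the 5 cultures. The cells of a culture share a library and differ in depth and type, so r is a description. The 10 genes with the highest mean r were Ifitm3 (0.224), Olfm4 (0.213), Pthlh (0.207), Cd81 (0.206), Isyna1 (0.197), Lgr5 (0.195), Smoc2 (0.194), Dek (0.193), Impdh2 (0.190) and Rgcc (0.186), beside a median of 0.0132 over all genes and a range of −0.102 to 0.134 from the 1st to the 99th percentile. Ifitm3 encodes an interferon-induced transmembrane protein, Pthlh a secreted parathyroid hormone-like peptide, Cd81 a tetraspanin, Isyna1 the enzyme that makes inositol phosphate, Dek a chromatin protein and Impdh2 an enzyme of guanine nucleotide synthesis. Each of the 10 had a positive r in all 5 cultures. The values were low throughout, from 0.135 (Cd81 in mutant culture 3) to 0.390 (Ifitm3 in mutant culture 1) in mutant cultures, and from 0.0186 (Rgcc) to 0.222 (Pthlh) in control cultures, where Igfbp4 counts were few.

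The 5 genes with the lowest mean r were Gsta1 (−0.175), Prap1 (−0.170), Guca2a (−0.166), Maoa (−0.157) and Ndrg1 (−0.156), each negative in all 5 cultures. Gsta1 encodes a glutathione transferase, Guca2a the peptide guanylin and Maoa a monoamine oxidase. By marker list, 8 of 8 stem markers had a mean r above 0, with a median of 0.146, and so did 20 of 20 S phase genes (median 0.0921) and 15 of 20 G2/M genes (median 0.0200), beside 62.4% of all genes. Of the enterocyte markers, 0 of 11 measured had one, with a median of −0.0862. The medians of the goblet and Paneth lists were −0.0360 and −0.0150.

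**Figure D4:**
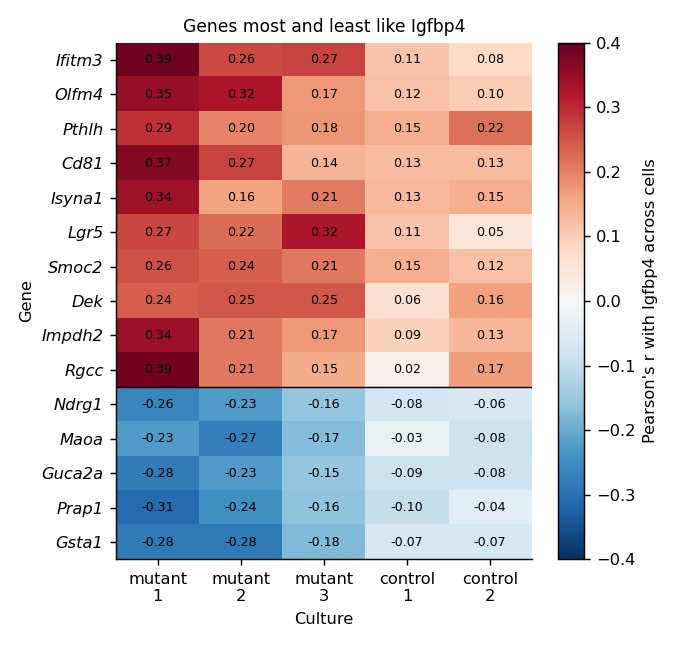
Pearson's r with Igfbp4 across the cells of each culture (columns, mutant left of control) for the 10 genes with the highest mean r and, under the line, the 5 with the lowest; red is positive and blue negative. Ifitm3 reaches 0.390 in mutant culture 1, and all values of the control cultures lie between −0.0957 and 0.222.

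Which genes stood at the top depended on the cells used. Of the 10, 4 were also in the top 10 by Spearman's rho, 6 in the mutant cultures alone, 4 in thinned cells and 3 within stem-like and cycling-like cells, and 10, 10, 8 and 7 were in the top 100 of those measures. Within stem-like and cycling-like cells, Lgr5 and Olfm4 kept a mean r of 0.197 and 0.192, and Ifitm3 0.180. Dek had −0.0152 there, Impdh2 0.0529 and Isyna1 0.0733. The highest mean r in those cells was that of Edn1, the endothelin 1 gene, at 0.206. By list, 7 of 8 stem markers (median 0.127), 8 of 20 S phase genes (median −0.0106), 0 of 20 G2/M genes (median −0.125) and 6 of 7 enterocyte markers (median 0.0323) had a mean r above 0 there, beside 47.7% of all genes. The enterocyte markers Alpi, Apoa4, Apoc3 and Krt20 had no mean r there and are not among the 7, since a gene needed a count in those cells of every culture. Alpi, for example, had a count in 2 stem-like or cycling-like cells, both in control culture 2. Across the 10 clusters rather than across cells, the highest r belonged to other genes, among them Casp8ap2 (0.989), Usp37 (0.973), Tada2a (0.961), Gart (0.960) and the replication helicase gene Mcm2 (0.948), and 0 of these top 10 were in the top 10 across cells. That r had 10 points, which share libraries, and 10096 genes to choose from.

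For the 10 genes most like Igfbp4 across cells, the mutant and control cultures were set side by side. Their fitted log2 fold changes of mutant over control were −0.44 to 0.30, and 0 of 10 passed an adjusted p of 0.05 (edgeR quasi-likelihood test with Benjamini-Hochberg adjustment over all genes). The fit called 1 of 11061 genes, 0.00904%, the hormone gene Pyy, lower in mutant cultures, so a count of 0 is what the background gives and nothing is read from it. At an unadjusted p under 0.05 there was 1, Ifitm3, and DESeq2 called 0 of them. Lgr5 stood at 116, 74.0 and 106 CPM in mutant cultures 1, 2 and 3, against 114 and 136 CPM in control cultures 1 and 2, so the groups overlapped (log2 fold change −0.35, SE 0.18, edgeR adjusted p = 0.9997). Olfm4 stood at 1705, 1574 and 1198 CPM in mutant and 1443 and 1300 CPM in control cultures (0.11, SE 0.15). Ifitm3 stood at 454, 358 and 419 CPM in mutant and 495 and 610 CPM in control cultures and did not pass (−0.44, SE 0.12, edgeR adjusted p = 0.9997).

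Within 300 kb of the start of Igfbp4 on chromosome 11, 22 other genes were annotated, 16 were in the matrix, and 9 had enough counts to test. In edgeR 0 of the 9 passed, beside 0.00904% of all genes called, 0 had an unadjusted p under 0.05 and DESeq2 called 0, and their log2 fold changes ran from −0.23 (Wipf2) to 0.22 (Cdc6). Top2a, the mitotic topoisomerase gene on the minus strand next to Igfbp4, stood at 192, 128 and 87.5 CPM in mutant cultures 1, 2 and 3, against 132 and 145 CPM in control cultures 1 and 2 (log2 fold change −0.03, SE 0.28). Tns4, on the other side, stood at 6.90, 4.59 and 8.35 CPM in mutant and 5.51 and 7.86 CPM in control cultures (−0.05, SE 0.29).

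Of the IGF system, the receptors were measured and the ligands mostly were not. Igf1, Ins1 and Ins2, which encode the growth factor IGF1 and insulin, had 0 counts in all cells, and Igf2 had 27. Igf1r, the receptor for IGF1, stood at 15.9, 12.2 and 14.1 CPM in mutant cultures 1, 2 and 3, against 13.8 and 14.1 CPM in control cultures 1 and 2 (log2 fold change 0.0020, SE 0.15). Like Igfbp4, it was higher in stem-like (19.7 CPM) than in enterocyte-like cells (4.48 CPM), as means of the 5 cultures. Insr, the insulin receptor gene, stood at 9.94, 8.71 and 10.02 CPM in mutant and 8.13 and 8.14 CPM in control cultures and did not pass (0.22, SE 0.16). Its groups did not overlap, as for some genes named below. The share of all genes without overlap was not counted, so nothing is read from this. Igf2r, whose product clears IGF2, stood at 19.9, 17.6 and 23.6 CPM in mutant and 19.0 and 23.6 CPM in control cultures.

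Igfbp4 was the only member of its family with enough counts to test. The other binding protein genes had 2 counts (Igfbp1), 32 (Igfbp2), 1 (Igfbp3), 0 (Igfbp5), 4 (Igfbp6) and 1 (Igfbp7), and Igfals, which encodes the subunit that stabilises circulating complexes, had 0. The Igfbp2 counts lay mainly in enteroendocrine-like cells, at 28.9 CPM as a mean of the cultures. Of the genes that act on IGFBP4 protein, Pappa, the protease gene, had 0 counts, Pappa2 had 1 and Stc1 had 1. Stc2, the stanniocalcin gene whose product inhibits PAPP-A, was found in 36.9% of cells and stood at 49.4, 22.0 and 42.7 CPM in mutant cultures 1, 2 and 3, against 52.1 and 43.0 CPM in control cultures 1 and 2 (log2 fold change −0.34, SE 0.30). As means of the 5 cultures it was lower in stem-like (19.2 CPM) than in cycling-like cells (52.9 CPM).

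Among 84 listed genes of the IGF system, of Wnt reception and response and of secreted crypt ligands, Igfbp4 left out, 58 were tested and 0 passed in either direction in edgeR, beside 0.00904% of all genes called. At an unadjusted p under 0.05 there were 2 higher and 3 lower, beside 133 higher and 204 lower of all 11061 genes, and DESeq2 called 0 of the list. Of the 58, 16 log2 fold changes were above and 42 below 0, with a median of −0.13, beside 0.0047 over all genes tested. Grb10, an adaptor that restrains insulin and IGF receptor signalling, stood at 0.802, 0.306 and 0.477 CPM in mutant cultures 1, 2 and 3, against 2.62 and 2.43 CPM in control cultures 1 and 2. The groups did not overlap, at low counts, and the difference did not pass (log2 fold change −2.22, SE 0.45, edgeR adjusted p = 0.9997). Irs2, an adaptor that passes the receptor signal on, stood at 5.29, 4.59 and 7.15 CPM in mutant and 3.58 and 3.71 CPM in control cultures (0.60, SE 0.27), also without passing. Other listed genes whose groups did not overlap included Pdpk1, Pik3ca, Pik3r1, Rps6kb1 and Fzd7, each lower in mutant cultures. Without the share over all genes, nothing is read from any of these separations. The 12 tested genes of IGF signalling and FOXO, such as Akt1, Akt2 and Foxo3, had log2 fold changes from −0.21 to 0.17.

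**Figure D5:**
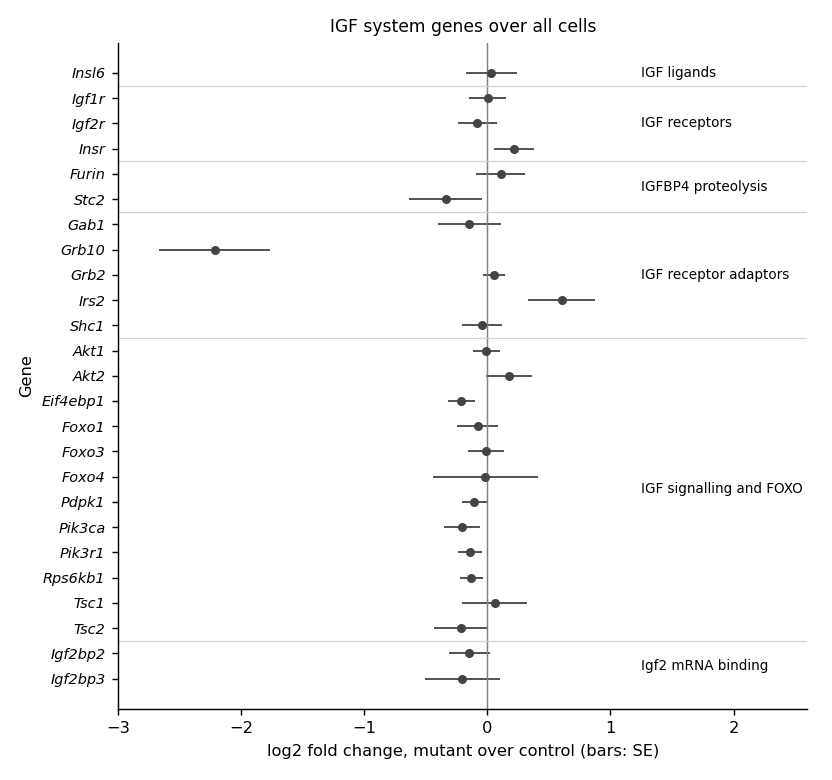
Fitted log2 fold change of mutant over control (points, with standard errors) over all cells for the tested genes of the IGF system, grouped by role. The 1 tested gene under IGF ligands is Insl6, an insulin-like peptide gene that encodes neither an IGF nor insulin. Grb10 lies at −2.22 and the other genes between −0.34 and 0.60; 0 of them passed the test across all genes.

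Of the Wnt genes, the receptors reported to bind IGFBP4 were measured in both groups. Lrp6 stood at 22.9, 22.5 and 23.9 CPM in mutant cultures 1, 2 and 3, against 19.7 and 25.1 CPM in control cultures 1 and 2 (log2 fold change 0.04, SE 0.13). Fzd5, a Frizzled receptor gene, stood at 26.3, 27.2 and 23.9 CPM in mutant and 18.9 and 18.1 CPM in control cultures, without overlap and without passing (0.48, SE 0.12, edgeR adjusted p = 0.9997). The 11 tested Wnt target genes all had log2 fold changes under 0, from −0.82 (Nkd1) to −0.03 (Axin2) with a median of −0.23. Over all genes tested the median was 0.0047. The share of all genes under 0 was not counted, and the common sign was not tested. In edgeR 0 of the 11 passed, beside 0.00904% of all genes called. Myc stood at 76.0, 68.0 and 67.3 CPM in mutant and 78.6 and 86.1 CPM in control cultures (−0.23, SE 0.09). The mean share of stem-like cells was lower in the mutant cultures (24.5% in mutant and 32.3% in control cultures), and its part in these values was not tested.

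Among secreted ligands, Ereg, which encodes the EGF family member epiregulin, stood at 7.54, 1.84 and 0.477 CPM in mutant cultures 1, 2 and 3, against 14.6 and 15.3 CPM in control cultures 1 and 2. Every mutant culture was lower, and the difference did not pass (log2 fold change −2.09, SE 0.60, edgeR adjusted p = 0.9997). Hbegf, another ligand of the EGF receptor, stood at 49.2, 52.4 and 66.1 CPM in mutant and 39.6 and 40.0 CPM in control cultures, again without passing (0.48, SE 0.14).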

How the data were processed

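The authors deposited 2 tables over the same 3409 barcodes: hashtag counts for 5 hashtags, and an estimated count per gene and cell for 22253 genes. Of the deposited RNA values above 0, 95.6% were whole (within 1e-06). Seurat 4.3.0, alevin, Salmon 1.4.0, Cell Ranger 6.1.0 and the build mm10 are named in the submitters' processing notes, with no role given. No normalization of the deposited estimated counts by the authors was seen in the values. The labels tie each hashtag to a genotype.

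HTODemux (Seurat 5.3.0, quantile 0.99) assigned barcodes with at least 500 genes and at most 25% mitochondrial counts: 1432 of 2725. The 239 barcodes with more than 1 hashtag were left out as doublets, and no caller was used for doublets within a culture. Clustering used scanpy 1.11.5 (2000 variable genes, 30 components, 15 neighbours, Leiden 0.8). A class needed 3 markers with a log2 fold of 0.5 in 25% of cells, and clusters whose cells' median UMIs were under 0.333 of their own culture's stayed unnamed where no such marker was among the top 10 genes, which held for clusters 8 and 9. A gene without a count in some culture's cells got no mean r. Levels (CPM) are summed Igfbp4 counts over the summed UMIs of the same cells, so deeper cells weigh more. Estimated counts were summed per culture, rounded and tested as mutant minus control with edgeR 4.0.16 (TMM, filterByExpr, Benjamini-Hochberg), with 0.05 as threshold, and with DESeq2 1.42.0. The edgeR fit and the correlations were tested on simulated data. Poisson and binomial intervals are exact at 95%.

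The gene, lists and tests were chosen with earlier results of these data known. Named genes were Igfbp4, listed genes with a count, neighbours within 300 kb, the 10 most and 5 least alike across cells and the 10 most alike across clusters. A listed gene was taken off the lists after the fits and is not reported here.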

Additional observations from a re-analysis of the deposited data

Results flagged for a closer look

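Igfbp4 was also found in barcodes that belong to no culture and entered no comparison. Barcodes with several hashtags (239) held 26.7 CPM (95% counting interval 22.9 to 30.9), barcodes with no hashtag (1054) held 22.8 CPM (20.3 to 25.6), and barcodes that failed the cell filter (684) held 20.5 CPM (14.5 to 28.7). All 3 values lay above both control cultures (4.0 and 5.71 CPM), and the barcodes with several hashtags lay within the range of the mutant cultures (24.7 to 49.2 CPM). The pool held cells of both genotypes, and the genotype of these barcodes could not be assigned. Pooled over cells given to a culture, mutant cells held 35.4 CPM and control cells 4.84 CPM. All 3 values lay between these, where a mixture of both genotypes would lie, so nothing is read from their place above the control cultures. Placed by their nearest neighbours, stem-like cells with no hashtag held 47.4 CPM and enterocyte-like cells with no hashtag 1.45 CPM. The same order was seen in every mutant and control culture. Among barcodes with several hashtags, stem-like ones held 37.4 CPM and enterocyte-like ones 14.7 CPM, from 24 counts, above the enterocyte-like level of every culture (at most 7.79 CPM).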

How the results depend on the processing

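The log2 ratio of mutant to control Igfbp4 was 2.86 over all cells and 2.53 to 3.14 with each culture left out in turn. The other settings gave 2.58 to 3.16, apart from 3.55 in cells whose top hashtag held at least 60% of hashtag counts, where control culture 1 had 0 counts. The excess of stem-like over enterocyte-like cells in mutant cultures was 4.3 on the log2 scale, 3.97 to 5.69 with each mutant culture left out, 4.23 when clustered without Igfbp4, and 2.75 at a Leiden resolution of 0.5. The excess of S or G2/M cells over cells called neither was 0.80, 0.76 to 0.89 with each mutant culture left out, 0.0024 without enterocyte-like cells, and −0.21 within stem-like cells, a reversal (−0.09 without mutant culture 2). Genes called over all cells numbered 1 with edgeR, 2 with no filter on low counts, 2 with MULTIseqDemux, 0 with equal cell numbers and 6 with DESeq2, and 1 to 6 with a culture left out (6 without control culture 1, 5 without control culture 2 and 3 without mutant culture 2). The cause was not tested. The numbers take in Igfbp4 where a setting called it, which is not read as a test of it. No setting called a listed gene, Igfbp4 left out. The settings on stem-like cells, on hashtag agreement and purity, on cell cycle state and on left-out cultures within the mutant group were added after seeing the data. No paired analysis was possible because the hashtags carry no replicate numbers shared between mutant and control cultures. Few counts limit the control values and those of enteroendocrine-like, goblet/Paneth-like, enterocyte-like and cluster 8 cells.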
